A study of Rattus norvegicus with 6 samples.

Results

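Chemokines and their receptors were described in contused rat spinal cord, in tissue of the T9 lesion core. Members were chosen by symbol alone: gene names made of Ccl, Cxcl, Ccr, Cxcr or Ackr and a number, together with Cx3cl1, Cx3cr1, Xcl1 and Xcr1 (Xcl1 matched no symbol). The rule found 39 of the 33455 genes in the deposited table, 21 ligands and 18 receptors, and 36 of them had at least 1 count. All animals were wild type, received the contusion and were given ultrasound at 100 Hz and 1 W/cm2 for 10 min a day over 4 weeks. The groups are labelled Gel+US (n = 3) and Piezo Gel+US (n = 3), and the study concerns a piezoelectric implant at the vertebrae. A piezoelectric material yields electrical charge when strained. The comparison addresses which transcripts differed with the piezoelectric gel. The labels used here do not describe what the gels are made of, nor strain, age, sex or day of tissue collection, and there is no uninjured or unstimulated group, so every value below comes from injured, stimulated cord.

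Chemokines are small secreted proteins that guide migrating cells along gradients, and they are named by the spacing of their leading cysteines (CC, CXC, CX3C and XC). Their receptors couple to G proteins on leukocytes, glia and endothelium, while the atypical receptors (Ackr) take up chemokines without that coupling. In injured spinal cord they are known for drawing in neutrophils, then monocytes and lymphocytes, and for contact between neurons and microglia through Cx3cl1 and Cx3cr1.

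Library totals ran from 17212653 to 21436820 counts, so 1 gene at 0 counts could still hold up to 0.150 to 0.167 CPM (counts scaled to a common library size), the level of 3 counts, allowing for counting error only. Levels are CPM on library sizes scaled by trimmed means (TMM). The table was made on an annotation that leaves several well-known chemokines without a symbol: 19 further rows have a chemokine or receptor product name and only a numbered identifier, among them the products for Ccl2, Ccl3 and Ccr1. These rows are not members and are given separately below. Of the 39 gene identifiers of the members, 0 occur in the RefSeq table of the Norway rat assembly GRCr8. The counts were thus made on a different annotation. Its gene identifiers and sequence names appear to be those of another species, Rattus rattus, while the samples are labelled Rattus norvegicus. This annotation is not named in the sources used here. How well reads of these genes were assigned by it was not tested, which bears on members with few or 0 counts. Of the 39 members, 23 passed the low-count filter, 9 ligands and 14 receptors. Of the 16 that did not, 3 were at 0 in all 6 libraries (Ccl20, Ccl26 and Ccr8).

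Per kilobase of listed gene length, the highest mean over the 6 libraries was that of Cxcl14 (62.4 CPM per kilobase), followed by Cx3cr1 (32.1), Ccl5 (31.8), Ackr1 (23.0), Cxcl12 (17.6) and Cx3cl1 (11.3). These levels differ in how steady they were. Cx3cl1 ran from 9.37 to 12.9 CPM per kilobase and Cxcl12 from 13.5 to 22.7, whereas Ccl5 ran from 1.80 to 117. The ranges of Cxcl14 (22.5 to 91.2), Cx3cr1 (10.0 to 50.7), Ccl5 and Ackr1 (11.1 to 45.5) overlap, so their order was not fixed across libraries.

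**Figure D1:**
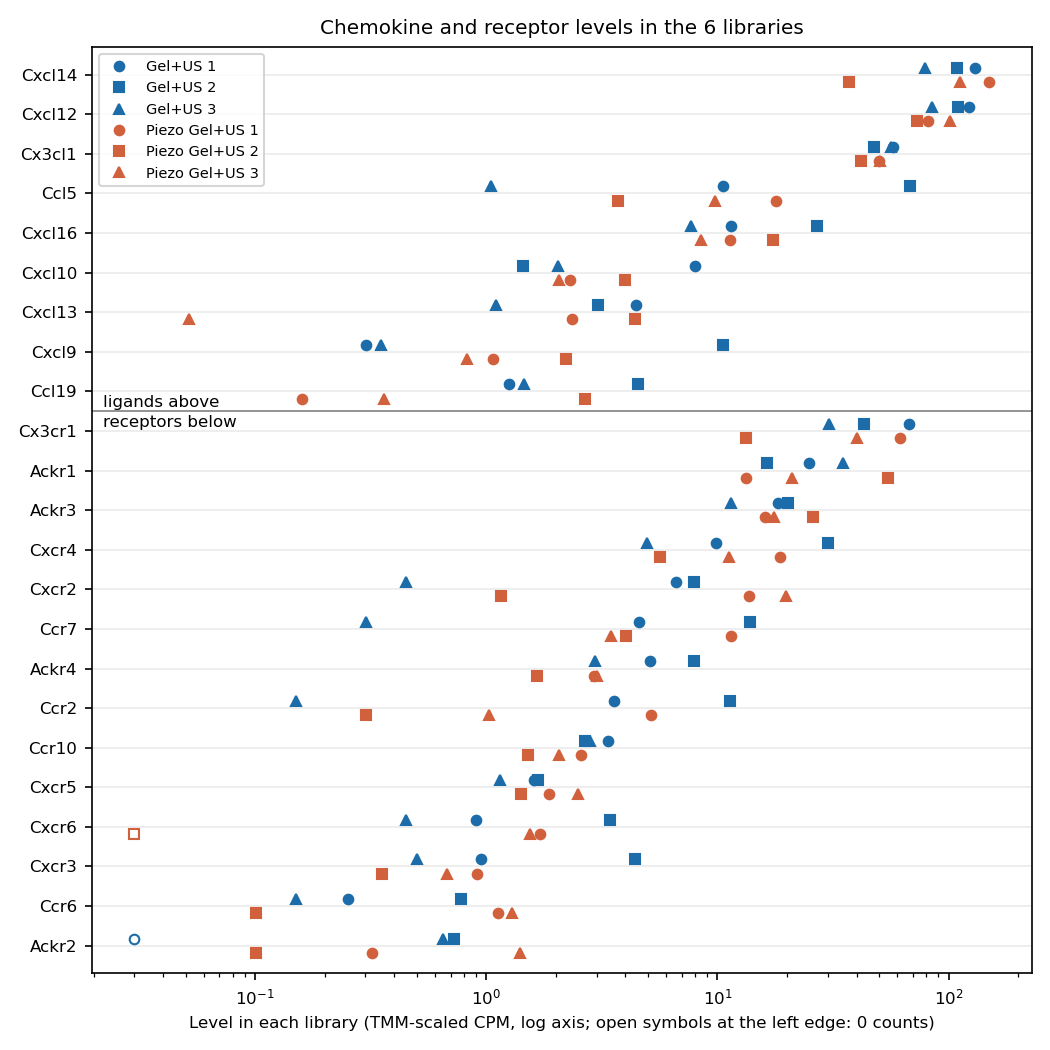
Level of each of the 23 tested members in each library, in TMM-scaled CPM on a log axis. Blue symbols are Gel+US and red symbols Piezo Gel+US, circles, squares and triangles are replicates 1, 2 and 3, and open symbols at the left edge are libraries with 0 counts. The symbols of Cx3cl1 and Cxcl12 lie close together, while those of Ccl5 run from 1.05 to 68.4 CPM within Gel+US alone.

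No member passed the edgeR quasi-likelihood test with Benjamini-Hochberg adjustment over all genes (0 of 23 members called, where 0% of the 17066 genes tested were called). The lowest adjusted p among members was 0.994. At an unadjusted p under 0.05 there were 0 of 23 members, where 2.10% of all genes tested lay there. DESeq2 also called 0 members, with 1 at that unadjusted level (Ackr4). The 95% interval of the fold change included 0 for 23 of 23 members. Of the 23, 16 had a mean fold change below 0 and 7 above it, where 9022 of the 17066 genes tested lay below. The members' median log2 fold change was -0.32, beside -0.021 over all genes tested. All 9 tested ligands lay below 0 (median -0.34) and the 14 receptors were evenly divided, 7 above and 7 below (median -0.13). Of these ligands, Cxcl14, Ccl5, Cxcl16, Cxcl9, Cxcl10 and Cxcl13 changed sign in at least 1 fit that left out a library. Cxcl12, Cx3cl1 and Ccl19 did not. Without Gel+US replicate 2 the members' median was 0.23, so its sign rests on that library. In 1 member, Ccr10, every Piezo Gel+US library lay below every Gel+US library, where 2.73% of all genes tested did so, and in 0 members did every Piezo Gel+US library lie above, where 4.08% did.

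**Figure D2:**
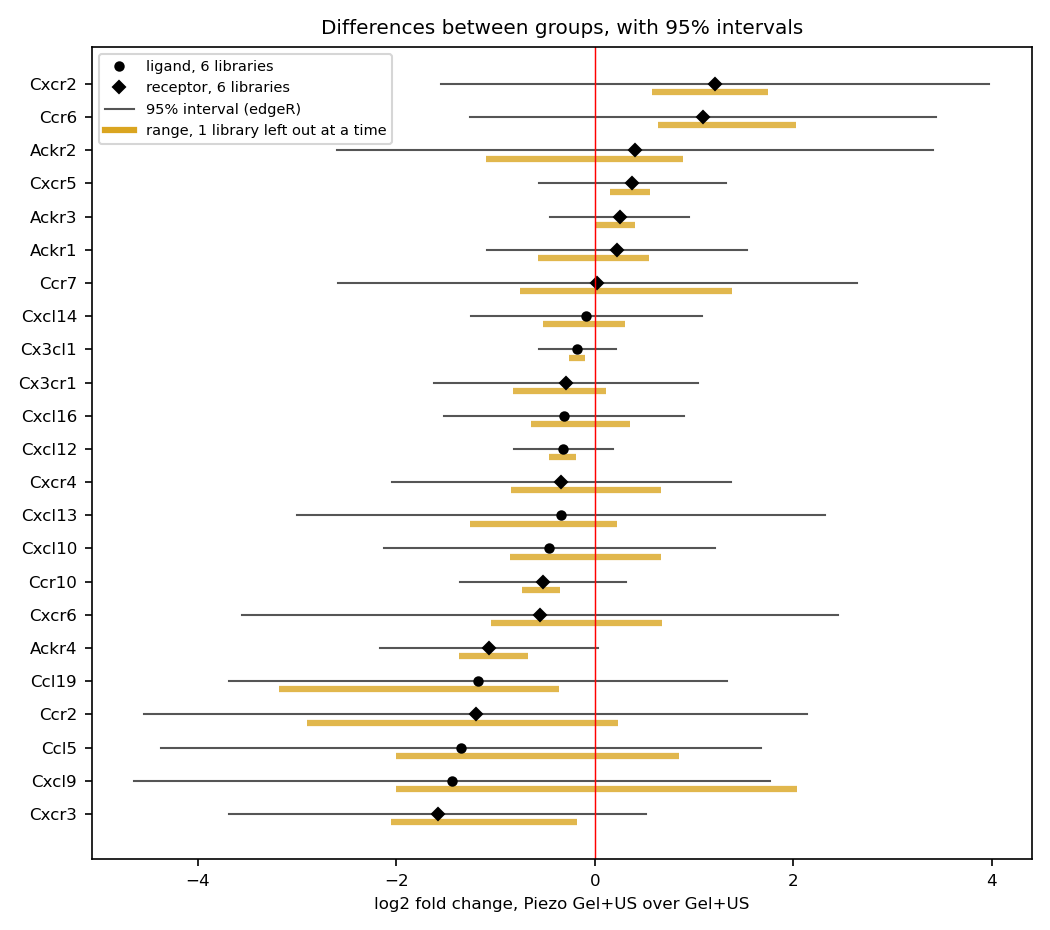
Log2 fold change of Piezo Gel+US over Gel+US for the 23 tested members. Points are the fit to 6 libraries, thin lines its 95% interval and thick lines the range when 1 library is left out at a time. Every interval crosses 0, and the thick lines of 13 members cross 0 as well.

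Among chemokines made by resting tissue, Cxcl14, Cxcl12 and Cx3cl1 had the highest levels in CPM. Cxcl14, a chemokine of epithelia and stroma, measured 130, 109 and 78.8 CPM across Gel+US replicates 1 to 3 and 150, 37.0 and 112 CPM across the Piezo Gel+US replicates. Piezo Gel+US replicate 2 was the low library, and the groups overlapped. The means were 106 ± 25.7 CPM in the Gel+US libraries and 99.7 ± 57.6 with Piezo Gel+US (SD, n = 3 each), with a log2 fold change of -0.087 (95% interval -1.25 to 1.08). Without Piezo Gel+US replicate 2 the log2 fold change was 0.30, and removing Gel+US replicate 1 gave 0.087. Cxcl12, which retains progenitor cells and leukocytes through Cxcr4, measured 123, 110 and 84.9 CPM in the Gel+US libraries and 81.8, 73.1 and 101 with Piezo Gel+US. The groups overlapped through Gel+US replicate 3 and Piezo Gel+US replicate 3. The log2 fold change was -0.32 (95% interval -0.82 to 0.18), and it stayed below 0 in each of the 6 fits that left out a library (-0.46 to -0.19).

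Cx3cl1, fractalkine, is tethered to the membrane of neurons and signals to microglia through Cx3cr1. It was among the steadiest members, with 57.5, 47.5 and 56.1 CPM in the Gel+US libraries and 50.2, 41.9 and 50.5 CPM with Piezo Gel+US. The groups overlapped by a narrow margin (53.7 ± 5.41 against 47.5 ± 4.91 CPM, log2 fold change -0.18, 95% interval -0.57 to 0.22). Between libraries of equal number it was lower with Piezo Gel+US in 3 of 3 pairs, as were 2 other tested members (Ccl19 and Ccr10). With the replicate number as a block the edgeR adjusted p of Cx3cl1 was 0.888. Its spread between libraries of a group, 0.150 on the log2(CPM + 0.5) scale, was smaller than that of most genes tested (11.3% were smaller still). Cxcl16, a membrane-bound chemokine and scavenger receptor, measured 11.5, 26.9 and 7.72 CPM in the Gel+US libraries and 11.3, 17.4 and 8.48 CPM with Piezo Gel+US. Replicate 2 was the highest in both groups. The log2 fold change was -0.31 (95% interval -1.52 to 0.90) and 0.36 without Gel+US replicate 2.

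Ccl5, which draws T cells and monocytes, was the only member grouped here as a monocyte ligand, as Ccl2 and Ccl3 carried no symbol. It measured 10.6, 68.4 and 1.05 CPM in the Gel+US libraries and 17.9, 3.72 and 9.78 CPM with Piezo Gel+US. The highest and the lowest library were both Gel+US, 65.0 times apart, and the 3 Piezo Gel+US libraries lay between them. The means were 26.7 ± 36.5 and 10.5 ± 7.13 CPM (log2 fold change -1.35, 95% interval -4.38 to 1.68). Without Gel+US replicate 2 the log2 fold change was 0.85, and it was 0.16 with the replicate number as a block, so its direction was not fixed. Summed levels of 10 T and NK cell genes had the same order of libraries, with 20.7, 122 and 4.81 CPM in the Gel+US libraries and 48.7, 14.3 and 20.4 CPM with Piezo Gel+US, and 0 of the 10 were at 0 throughout. Their part in the Ccl5 values was not tested, and in bulk tissue fewer cells of a type and less RNA per cell cannot be told apart.

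Cxcl9, Cxcl10 and Cxcl11 are induced by interferons and share the receptor Cxcr3 of activated T and NK cells. By the positions listed with the counts, on an unnamed build, they lie side by side on 1 sequence and on the minus strand, Cxcl9 at 5174692 to 5179939, Cxcl10 at 5197749 to 5200080 and Cxcl11 at 5211905 to 5214846. Their start regions were picked for display after it was seen that the 3 neighbours peaked in different libraries, Cxcl11 on 47 counts in all. RefSeq windows of 250 bases before to 50 after each start were read from the Norway rat assembly GRCr8 (Cxcl9 chr14:16006916-16007215, Cxcl10 chr14:15988816-15989115 and Cxcl11 chr14:15973478-15973777, all plus strand there). Capitals mark matches, on either strand, to GGANTTTCC (a core of NF-kB sites), TTCNNNGAA (the GAS element of STAT factors) or GAAANNGAA (a core of interferon-stimulated response elements).
Cxcl9: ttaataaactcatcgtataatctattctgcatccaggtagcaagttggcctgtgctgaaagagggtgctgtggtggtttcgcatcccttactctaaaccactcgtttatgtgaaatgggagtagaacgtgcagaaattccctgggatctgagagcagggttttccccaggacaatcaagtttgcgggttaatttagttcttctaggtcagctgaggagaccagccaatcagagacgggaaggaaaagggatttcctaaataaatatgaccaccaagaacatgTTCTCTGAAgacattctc
Cxcl10: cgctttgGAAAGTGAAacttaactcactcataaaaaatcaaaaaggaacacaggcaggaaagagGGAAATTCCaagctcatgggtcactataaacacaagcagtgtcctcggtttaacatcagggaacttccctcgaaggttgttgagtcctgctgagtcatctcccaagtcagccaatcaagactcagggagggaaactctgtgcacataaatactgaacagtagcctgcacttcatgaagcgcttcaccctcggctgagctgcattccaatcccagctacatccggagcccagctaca
Cxcl11: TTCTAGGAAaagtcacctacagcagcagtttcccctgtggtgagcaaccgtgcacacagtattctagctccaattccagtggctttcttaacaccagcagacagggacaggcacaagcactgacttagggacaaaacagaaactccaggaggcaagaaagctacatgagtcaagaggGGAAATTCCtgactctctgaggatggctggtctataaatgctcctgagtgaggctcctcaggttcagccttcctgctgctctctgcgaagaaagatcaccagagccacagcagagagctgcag

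In these windows Cxcl10 and Cxcl11 each held a GGANTTTCC match, which begins 186 bases before the Cxcl10 start (-186) and 73 before that of Cxcl11 (-73), both on the reverse strand. Cxcl11 and Cxcl9 held a TTCNNNGAA match, that of Cxcl9 beginning at base 33 counted from the start as 1, and Cxcl10 a GAAANNGAA match. Of 33469 rat promoter windows of this length, 1.28% held the first motif, 8.87% the second and 9.71% the third. Of the 31 members with such a window, 3 held the first (Cxcl6, Cxcl10 and Cxcl11), 5 the second and 3 the third. No shown match overlaps another. A match describes letters only and does not show binding. Other spellings of these sites were not searched, so a window without a match may still hold one. Any part of these letters in the measured levels was not tested.

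Cxcl9 measured 0.301, 10.6 and 0.351 CPM in the Gel+US libraries and 1.07, 2.21 and 0.828 CPM with Piezo Gel+US. Gel+US replicate 2 stood above the rest, and the other 2 Gel+US libraries were the lowest of the 6. The log2 fold change was -1.44 (95% interval -4.64 to 1.77) with all libraries, 2.04 without Gel+US replicate 2 and 0.11 with the replicate block. Cxcl10 measured 7.97, 1.44 and 2.05 CPM in the Gel+US libraries and 2.29, 3.97 and 2.07 CPM with Piezo Gel+US. Here Gel+US replicate 1 was highest and Gel+US replicate 2, the peak of Cxcl9, was lowest. The log2 fold change was -0.46 (95% interval -2.13 to 1.21) and 0.67 without Gel+US replicate 1. Cxcl11 was below the filter, with 30 of its 47 counts in Piezo Gel+US replicate 2 and 0 to 7 in each other library. Cxcr3 measured 0.952, 4.39 and 0.501 CPM in the Gel+US libraries and 0.907, 0.352 and 0.673 CPM with Piezo Gel+US. Like Cxcl9 it peaked in Gel+US replicate 2, where the T and NK cell genes also peaked. For Cxcr3 the log2 fold change was -1.58 (95% interval -3.69 to 0.52), and -0.18 without that library. Irf7, an interferon response regulator named after its values were seen, had the same peak (77.4, 404 and 13 CPM in the Gel+US libraries, 97.0, 41.4 and 13.2 with Piezo Gel+US).

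The homing chemokines organise lymphoid tissue, Cxcl13 by attracting B cells through Cxcr5 and Ccl19 and Ccl21 by attracting dendritic cells and T cells through Ccr7. Cxcl13 measured 4.46, 3.05 and 1.10 CPM in the Gel+US libraries and 2.35, 4.38 and 0.0517 CPM with Piezo Gel+US. Piezo Gel+US replicate 3 held a single count, and without it the log2 fold change of -0.34 (95% interval -3.01 to 2.32) became 0.23. Leaving out Gel+US replicate 1 gave 0.12. Cxcr5 ran from 1.15 to 2.48 CPM over the 6 libraries (log2 fold change 0.38, 95% interval -0.57 to 1.33). Ccl19 measured 1.25, 4.55 and 1.45 CPM in the Gel+US libraries and 0.160, 2.67 and 0.362 CPM with Piezo Gel+US. Piezo Gel+US replicates 1 and 3 were below every other library, and replicate 2 lay within the Gel+US range. Its log2 fold change was -1.17 (95% interval -3.68 to 1.34), and it was below 0 in each of the 6 fits that left out a library, from -3.19 without Piezo Gel+US replicate 2 to -0.36 without Gel+US replicate 2. With the replicate number as a block it was -1.74 (unadjusted p = 0.0238, adjusted p = 0.855 by edgeR).

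Ccl21 was singled out after its values were seen. It had 99 counts in Gel+US replicate 2, 192 in Piezo Gel+US replicate 3 and 1 in Gel+US replicate 3, and 0 in the remaining 3 libraries. The libraries with more than 1 count thus came 1 from each group, at 5.50 and 9.93 CPM. The filter asks for enough counts in at least 3 libraries, so the gene was not tested. Ccl21 is made by lymphatic endothelium, and the 4 lymphatic genes Prox1, Lyve1, Flt4 and Pdpn were detected in every library, summing to 47.1 to 72.2 CPM in the Gel+US libraries and 47.2 to 59.1 with Piezo Gel+US. They did not share 1 course. Lyve1 measured 4.51, 16.9 and 3.16 CPM in the Gel+US libraries and 3.47, 13.9 and 12.5 CPM with Piezo Gel+US. Lyve1 was thus high in both libraries with more than 1 Ccl21 count, and in Piezo Gel+US replicate 2, where Ccl21 was at 0. Pdpn was instead lowest in Piezo Gel+US replicate 3 (17.8 CPM) and Prox1 in Piezo Gel+US replicate 2 (3.57 CPM). Flt4 ran from 4.71 to 12.1 CPM. Their part in the Ccl21 values was not tested. How reads of near-identical Ccl21 copies were counted is not stated in the sources used here. Ccl19, a neighbour on the same strand, had 82 counts in Gel+US replicate 2 and 7 in Piezo Gel+US replicate 3. Ccr7, the receptor of both, measured 4.56, 13.8 and 0.301 CPM in the Gel+US libraries and 11.5, 4.02 and 3.47 CPM with Piezo Gel+US. Gel+US held both its highest and its lowest library, and the means differed by less than their spread (6.23 ± 6.92 and 6.34 ± 4.50 CPM, log2 fold change 0.027, 95% interval -2.59 to 2.64). Without Gel+US replicate 2 the log2 fold change was 1.38, and it was -0.15 without Gel+US replicate 1, -0.55 without Gel+US replicate 3, or -0.75 if fitted without Piezo Gel+US replicate 1. The summed level of 7 B and plasma cell genes followed a like course (12.5, 52.7 and 1.65 CPM in the Gel+US libraries, 43.7, 15.9 and 10.5 CPM with Piezo Gel+US). Its part in the Ccr7 values was not tested.

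For neutrophils, the receptor Cxcr2 passed the filter and its ligands did not. Cxcr2 measured 6.61, 7.89 and 0.451 CPM in the Gel+US libraries and 13.7, 1.16 and 19.8 CPM with Piezo Gel+US. Piezo Gel+US replicates 1 and 3 were above every Gel+US library, while replicate 2 was below Gel+US replicates 1 and 2. The log2 fold change of 1.21 was the highest above 0 among the 23 members (Cxcr3, Cxcl9 and Ccl5 lay farther below 0) and had a 95% interval of -1.55 to 3.98. Leaving out 1 library gave values from 0.58 without Piezo Gel+US replicate 3 to 1.74 without Piezo Gel+US replicate 2. Most neutrophil markers peaked in another library than Cxcr2. Of 7 such genes 5 were highest in Gel+US replicate 2, and only 1, Csf3r, in Piezo Gel+US replicate 3 as Cxcr2 was. The lowest library was Gel+US replicate 3 for 6 of the 7, as for Cxcr2. Csf3r, the receptor for the granulocyte growth factor, measured 39.9, 55.8 and 6.47 CPM in the Gel+US libraries and 66.6, 6.99 and 77.4 CPM with Piezo Gel+US, in the same library order as Cxcr2. S100a9, an abundant neutrophil protein, was instead highest in Gel+US replicate 2 (125 CPM) and lowest in Gel+US replicate 3 (1.05 CPM). The summed level of 7 neutrophil genes was 8.67 to 292 CPM in the Gel+US libraries and 98.1 to 223 with Piezo Gel+US, 0 of them at 0 throughout, and its part in the Cxcr2 values was not tested. Cxcl6, a ligand of Cxcr2, had 4 counts in all, 1 in Gel+US replicate 1 and 3 in Piezo Gel+US replicate 1. Rows outside the rule described as C-X-C motif chemokine 2 and 3, further ligands of Cxcr2, had 18 and 12 counts. The row for growth-regulated alpha protein, another Cxcr2 ligand, had 47, of which 27 were in Piezo Gel+US replicate 3, where Cxcr2 peaked. The row for permeability factor 2-like had 79, of which 38 were in Piezo Gel+US replicate 1.

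Cx3cr1, the fractalkine receptor that marks microglia, measured 67.3, 43.2 and 30.4 CPM in the Gel+US libraries and 61.8, 13.3 and 40.0 CPM with Piezo Gel+US. Piezo Gel+US replicate 2 was below all others, and the remaining 5 libraries were mixed between the groups. The means were 47.0 ± 18.8 and 38.4 ± 24.3 CPM (log2 fold change -0.29, 95% interval -1.62 to 1.04), with 0.11 without that library and 0.063 without Gel+US replicate 1. Of the 6 microglial genes 5 were also lowest in Piezo Gel+US replicate 2, with P2ry12, a purinergic receptor, at 14.9 CPM against 28.1 to 53.1 elsewhere and Tmem119 at 10.1 CPM against 21.0 to 38.5. The other, Olfml3, was high there (56.9 CPM) and lowest in Piezo Gel+US replicate 1 (20.1 CPM). The 6 microglia genes summed to 121 to 267 CPM in the Gel+US libraries and 104 to 165 with Piezo Gel+US. Their part in the Cx3cr1 values was not tested.

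Ccr2, through which blood monocytes follow Ccl2 and Ccl7, was singled out after its values were seen. It measured 3.56, 11.3 and 0.150 CPM in the Gel+US libraries and 5.18, 0.302 and 1.03 CPM with Piezo Gel+US. The lowest library, Gel+US replicate 3, had 3 counts and the highest, Gel+US replicate 2, had 203. Its log2 fold change was -1.20 (95% interval -4.54 to 2.14), and 0.23 without Gel+US replicate 2. The macrophage and monocyte list (9 genes, 179 to 347 CPM in the Gel+US libraries and 82.3 to 403 with Piezo Gel+US) had its highest sum in Piezo Gel+US replicate 1, where Gpnmb alone gave 302 CPM. Of its 9 genes 7 peaked in Gel+US replicate 2, as Ccr2 did, and without Gpnmb the sum was highest there too (174 CPM against 55.0 to 107 elsewhere). Its part in the Ccr2 values was not tested.

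Cxcr4, the signalling receptor of Cxcl12, measured 9.87, 30.0 and 4.96 CPM in the Gel+US libraries and 18.6, 5.63 and 11.2 CPM with Piezo Gel+US. Again the extremes were Gel+US replicates 2 and 3. The log2 fold change was -0.34 (95% interval -2.04 to 1.37), and 0.67 without Gel+US replicate 2. Ackr3, which removes Cxcl12, was steadier, with 18.2, 20.2 and 11.5 CPM in the Gel+US libraries and 16.1, 25.8 and 17.5 CPM with Piezo Gel+US. Its log2 fold change was 0.25 (95% interval -0.45 to 0.95). Without Piezo Gel+US replicate 2 that value was 0.0076. So the ligand Cxcl12 had a narrower range than either receptor: 1.69 times between its lowest and highest library, beside 2.24 times for Ackr3 and 6.04 times for Cxcr4.

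The other atypical receptors bind inflammatory and homing chemokines. Ackr1, a chemokine-binding protein of venules and red blood cells, measured 24.8, 16.4 and 35.1 CPM in the Gel+US libraries and 13.3, 54.6 and 21.0 CPM with Piezo Gel+US. Its highest library was Piezo Gel+US replicate 2, followed by Gel+US replicate 3. Its log2 fold change was 0.22 (95% interval -1.09 to 1.53), with -0.57 without Piezo Gel+US replicate 2, -0.031 without Gel+US replicate 2 and -0.0077 with the replicate block. Of 8 blood endothelial genes 4 (Kdr, Cldn5, Tek and Emcn) also peaked in Piezo Gel+US replicate 2, as did their sum (1140 CPM against 619 to 1070 elsewhere), while Vwf and Flt1 peaked in Gel+US replicate 1 and Pecam1 and Cdh5 in Gel+US replicate 2. Their part in the Ackr1 values was not tested. Ackr4, which scavenges Ccl19 and Ccl21, had the lowest unadjusted p of all members (0.0546) and was singled out for it. It measured 5.11, 7.89 and 2.96 CPM in the Gel+US libraries and 2.93, 1.66 and 3.00 CPM with Piezo Gel+US. Only Gel+US replicate 3 overlapped with Piezo Gel+US, and the log2 fold change was -1.07 (95% interval -2.16 to 0.028, edgeR adjusted p = 0.994). It remained below 0 in each of the 6 fits that left out a library (-1.37 to -0.68). Its whole length of 1548 bases lies within the listed span of Acad11 on the opposite strand, a gene with 2475 counts in all. Exon positions were not compared, so whether unstranded counting would mix reads of the 2 genes is not known. Ackr2, a scavenger of inflammatory CC chemokines, had 0 to 27 counts per library (log2 fold change 0.41, 95% interval -2.60 to 3.41, -1.10 without Piezo Gel+US replicate 3, or -0.18 if fitted without Gel+US replicate 1).

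Ccr10, a receptor of skin-homing lymphocytes that binds Ccl27 and Ccl28, was the member whose groups did not overlap. It measured 3.36, 2.67 and 2.81 CPM in the Gel+US libraries and 2.56, 1.51 and 2.07 CPM with Piezo Gel+US. Gel+US replicate 2 and Piezo Gel+US replicate 1 were nearest, at 48 counts each. The means were 2.94 ± 0.365 and 2.05 ± 0.527 CPM (log2 fold change -0.52, 95% interval -1.36 to 0.31, edgeR adjusted p = 0.994). It rests on 30 to 67 counts per library. Cxcr6, the Cxcl16 receptor of T cells, ran from 0 CPM in Piezo Gel+US replicate 2 up to 3.44 CPM in Gel+US replicate 2. The fitted log2 fold change was -0.55 (95% interval -3.56 to 2.46), 0.67 without Gel+US replicate 2, or 0.022 if fitted without Piezo Gel+US replicate 2. Its position lies within Fyco1 on the opposite strand. Ccr6, the receptor for Ccl20, had 2 to 25 counts per library, with its highest levels in Piezo Gel+US replicates 3 and 1 (1.29 and 1.12 CPM, log2 fold change 1.09, 95% interval -1.26 to 3.44).

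The 12 remaining untested members with any count had 1 to 47 counts in total. Cxcl17, a mucosal chemokine, had 31, Ccl17 and Ccl22, which bind Ccr4, had 23 and 16, and Ccr4 itself had 6. Xcr1, a receptor of cross-presenting dendritic cells, had 18 counts, 9 of them in Gel+US replicate 2, and Ccr9, a gut-homing receptor, had 20. Ccl24, an eosinophil chemokine, had 15 counts, 10 of them in Piezo Gel+US replicate 2. Ccl28 and Ccl25 had 2 counts each and Ccl1 had 1. No fold change is given for these genes.

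Library by library, Gel+US replicate 2 was the highest for 10 of the 23 tested members, where 19.0% of all genes tested peaked there. Gel+US replicate 3 was the highest for 0 tested members, where 24.4% of all genes tested had their highest value. It was the lowest for 8, and Piezo Gel+US replicate 2 was the lowest for 9, where 26.6% and 28.4% of all genes tested had their lowest value. Summed over the 39 members, the level was 495, 554 and 326 CPM in the Gel+US libraries and 471, 299 and 422 CPM with Piezo Gel+US. The spread between libraries of a group exceeded the median of all tested genes (0.349 on the log2(CPM + 0.5) scale) in 19 of the 23 members, and the members' median was 0.855. Ccl5 (2.08), Cxcr2 (1.85), Ccr2 (1.81) and Ccr7 (1.61) spread the most. Between libraries of equal replicate number, Piezo Gel+US was lower in 12 of 23 members for replicate 1, in 19 for replicate 2 and in 5 for replicate 3, so the replicates did not share a direction.

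**Figure D3:**
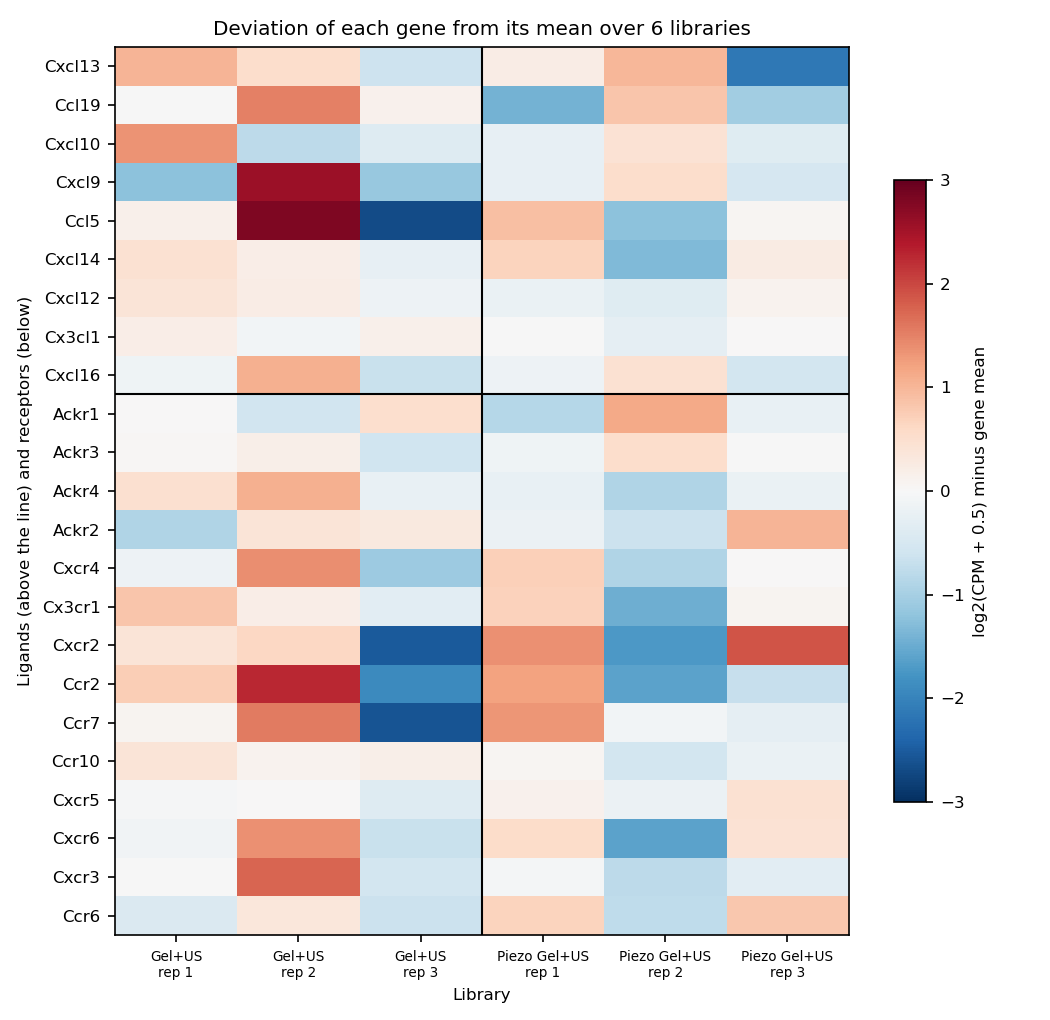
Deviation of each of the 23 tested members from its own mean over the 6 libraries, on the log2(CPM + 0.5) scale. Columns are libraries, ligands are above the horizontal line and receptors below it, red is above the gene's mean and blue below. The column of Gel+US replicate 2 is mostly red and that of Gel+US replicate 3 mostly blue, within the same group.

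Markers of several immune cell types differed between the same libraries. The T and NK cell, B cell and neutrophil lists were each highest in Gel+US replicate 2 and lowest in Gel+US replicate 3. The macrophage, microglia and dendritic cell lists did not have this order. Macrophage and microglia sums were lowest in Piezo Gel+US replicate 2 (82.3 and 104 CPM). The sum of 4 dendritic cell genes varied little between libraries (35 to 43.7 CPM) and was highest in Gel+US replicate 3. In the T and NK list 9 of 9 tested genes had a log2 fold change below 0 (median -0.68), and 0 were called. Fibroblast genes, which mark scar and meninges, were high in both libraries numbered 2 (6620 and 5850 CPM summed over 7 genes) and lower elsewhere (674 to 1310 CPM). Schwann cell genes summed to 69800 CPM in Piezo Gel+US replicate 2 and 4310 to 12700 in the others. Neuron genes, which mark cord tissue, were lowest in Piezo Gel+US replicate 2 (657 CPM) and highest in Gel+US replicate 3 (2530 CPM). The part of tissue makeup in the chemokine values was not tested.

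**Figure D4:**
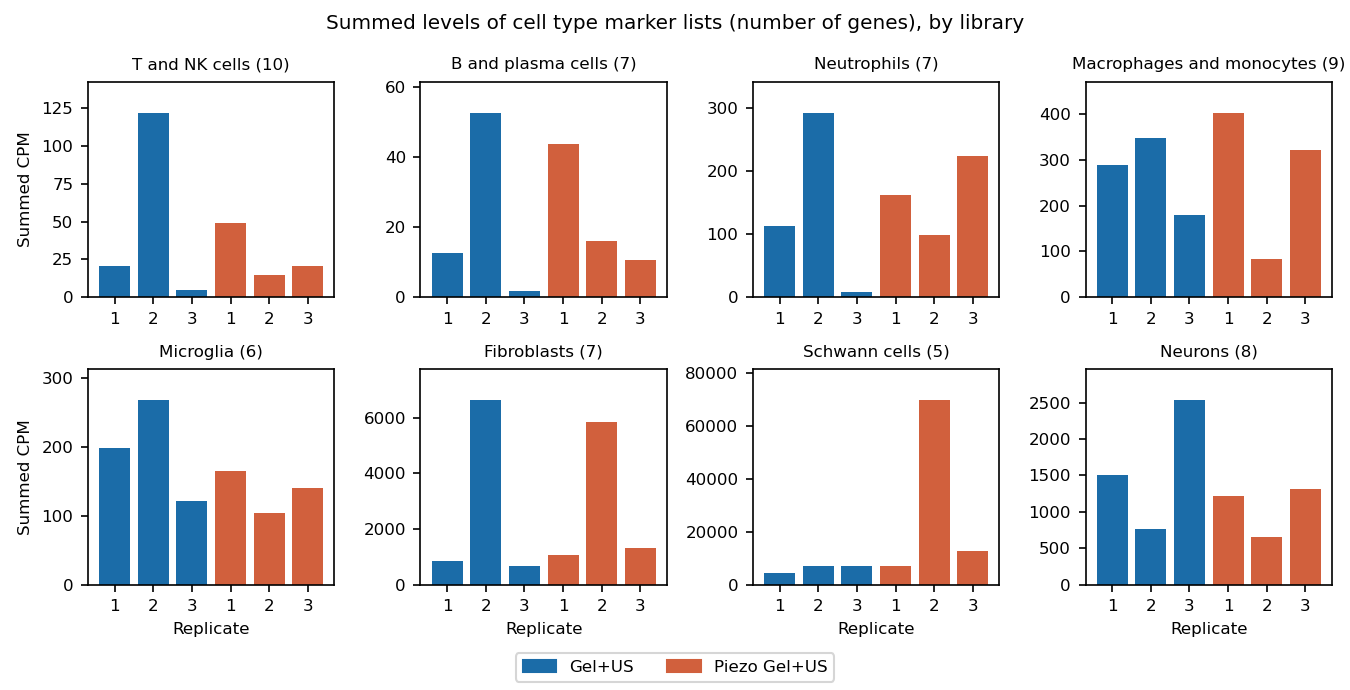
Summed level in CPM of cell type marker lists in each library, with the number of genes in brackets. Blue bars are Gel+US and red bars Piezo Gel+US, numbered by replicate, and each panel has its own axis from 0. T and NK cell genes reach 122 CPM in Gel+US replicate 2 and 4.81 CPM in Gel+US replicate 3.

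Among the 19 chemokine rows without a symbol, 10 passed the filter and 0 were called, 4 above and 6 below a fold change of 0 (median log2 fold change -0.20). The row described as platelet factor 4, a CXC chemokine stored in platelets and made by macrophages, had the highest level per kilobase of these rows (443 CPM per kilobase). It measured 249, 476 and 7.47 CPM in the Gel+US libraries and 276, 141 and 184 CPM with Piezo Gel+US. Gel+US replicate 3 was far below the other libraries, and the log2 fold change was -0.29 (95% interval -2.93 to 2.36). C-C motif chemokine 6 measured 16.6, 40.9 and 1.95 CPM in the Gel+US libraries and 33.3, 9.91 and 42.1 CPM with Piezo Gel+US. C-C chemokine receptor type 1, a receptor of monocytes and neutrophils, measured 6.66, 12.3 and 0.551 CPM in the Gel+US libraries and 13, 3.67 and 22.8 CPM with Piezo Gel+US. Both were highest in Piezo Gel+US replicate 3 and lowest in Gel+US replicate 3, as Cxcr2 was. C-C motif chemokine 2, the main monocyte attractant, was low, at 1.10, 2.22 and 0.351 CPM in the Gel+US libraries and 0.427, 0.956 and 0.931 CPM with Piezo Gel+US. Its log2 fold change was -0.66 (95% interval -2.37 to 1.06). C-C motif chemokine 3 and 4 had log2 fold changes of -0.21 and -0.96, and their listed positions overlap by 100 bases on opposite strands.

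Genes that act above and below chemokines were not called either. In the list of cytokine, NF-kB and interferon genes that induce chemokines, 0 of 23 tested genes were called, 16 above and 7 below (median log2 fold change 0.16). Its genes of lowest p were Rela and Nfkb2, subunits of NF-kB, with log2 fold changes of 0.56 and 0.75. In the list of signal transduction below the receptors, 0 of 28 were called, 11 above and 17 below (median -0.097), with Rgs2, a regulator of G protein signalling, at -0.55 and Gng2, a G protein subunit, at 0.66. Of related attractants and receptors outside the rule, 0 of 11 were called, 4 above and 7 below (median -0.12), with the chemerin receptor Cmklr1 at -0.66 and chemerin itself, Rarres2, at 0.40.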

How the data were processed

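RNA of 6 lesion-centre samples was measured, 3 per group, each group taken from the sample titles. The authors deposited raw counts per gene, not normalised. Per the submitters' processing notes, HISAT2 2.0.5, fastp 0.19.7, DESeq2 1.20.0 and featureCounts 1.5.0-p3 were used, without roles. Build and strand setting are not given in the sources used here. Total counts were 17212653 to 21436820 per library.

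Counts were fitted over the whole table with edgeR 4.0.16 in R 4.3.3 (TMM, filterByExpr with minimum count 10 and total 15, robust quasi-likelihood F test, group only), adjusted over 17066 genes and called below 0.05. DESeq2 1.42.0, another scaling, no filter, a replicate block and leaving out each library were alternatives. The fit was also run on simulated counts with less spread than these data (common biological coefficient of variation 0.382). That run does not show how the fit performs on members that vary this much. The labels call replicates biological. Deviations from group means correlated at 0.272, 0.340 and 0.281 between same-numbered libraries. No correlation between differently numbered libraries was set beside these, and the labels do not say that equal numbers mark pairs. Whether the libraries are paired is thus not known, so the block was an alternative and not the main fit. Members and lists were chosen with earlier results of these data known.

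Values in every library are given for tested members with a mean of at least 5 CPM, an unadjusted p under 0.05 or groups that do not overlap. Cxcl9, Cxcl10, Cxcl13 and Ccl19 stand for roles otherwise left out. Values of Cxcr3, whose role Ccr7 and Ccr10 already cover, and of some other members are given outside this rule. The 2 genes of lowest p are named per pathway list. Marker lists of mast cells (0 to 2.00 CPM in Gel+US, 0.0517 to 0.694 in Piezo Gel+US) and fat cells (0.251 to 2.61 and 0.587 to 0.755 CPM) were near 0, and no red blood cell gene was matched by symbol. The values of 1 item are not reported here.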

Additional observations from a re-analysis of the deposited data

How the results depend on the processing

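The count of 0 genes and 0 members called held under every alternative run (another scaling, no low-count filter, DESeq2, the replicate block and each library left out). All 23 tested members kept the sign of their fold change under the other scaling, without the filter and with DESeq2. With the replicate number as a block 20 kept it, and Ackr1 (-0.0077), Ccl5 (0.16) and Cxcl9 (0.11) turned. The block changed no call, and the members' median under it was -0.18. At an unadjusted p under 0.05 it gave 986 genes beside 359 without it, DESeq2 gave 652 and leaving out 1 library gave 141 to 775. With 1 library left out, the members' median ran from -0.56 to 0.23, and the number of members whose groups did not overlap from 1 to 5, against groups of 2 and 3. The share over all genes was not counted with groups of these sizes, so that number cannot be read as a trait of the members. Log2 fold changes changed sign in at least 1 of these 6 fits for 13 members and in none for 10. The 13 ranged as follows: Cxcl14 -0.52 to 0.30, Cx3cr1 -0.82 to 0.11, Ackr1 -0.57 to 0.55, Ccl5 -2.00 to 0.85, Cxcl16 -0.65 to 0.36, Cxcr4 -0.84 to 0.67, Ccr7 -0.75 to 1.38, Ccr2 -2.91 to 0.23, Cxcl10 -0.86 to 0.67, Cxcl13 -1.26 to 0.23, Cxcl9 -2.00 to 2.04, Cxcr6 -1.05 to 0.67, Ackr2 -1.10 to 0.89. The cause of these changes was not tested. What depth alone limits was not tested.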
